A study of Danio rerio with 15 samples.

Results

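The results describe the kidney 3 days after an acute injury in comparison with the uninjured kidney, in 6 of the 15 kidney samples of a time course. The 3 samples of the 3 days post injury (dpi) group and the 3 uninjured samples were chosen by their labels alone, and not by any measured value. All kidneys came from AB strain zebrafish of 6 months of age. Injured fish received an intraperitoneal injection of gentamicin, an aminoglycoside antibiotic that is toxic to the tubule, and only fish with protein in the urine on the first day were taken further, so the injured groups hold only animals chosen in this way. The labels call the uninjured samples controls and give no vehicle injection, and 3 samples each at 1, 5 and 7 dpi complete the series. All groups carry the same strain background, with no transgene or mutation given in the labels. Whether a sample is 1 kidney or several pooled was not found in the sources used here, nor was the sex of the fish, and p-values measure the spread between these samples. Whole kidneys were sequenced as polyadenylated RNA, and the values are FPKM, sequenced fragments scaled by the length of the gene and by the mapped reads of the sample.

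The zebrafish kidney filters blood at the glomerulus and recovers most of the filtrate in the proximal tubule, whose cells carry sodium-coupled carriers for glucose, amino acids and phosphate, organic anion carriers, and the giant endocytic receptors that take up filtered protein. Gentamicin enters these cells through the same receptors and damages them. Unlike the mammalian kidney, the fish kidney repairs such damage both by regrowth of the tubule epithelium and by forming new nephrons, and it also holds the marrow in which the blood cells of the fish are made. A whole-kidney sample therefore mixes tubule, vessel, interstitium and blood-forming cells, so fewer cells of a type and less RNA per cell cannot be told apart in any value given here.

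Of the genes listed in the deposited data, 5685 had an FPKM above 0 in 3 or more of the 15 samples and were tested, and 1 further gene was not. The rule by which the authors chose these genes was not found, and they held 24.8% to 26.1% of the reads in the uninjured samples and 20.2% to 23.1% at 3 dpi, so every share given is a share of the listed genes. The reads recovered behind the FPKM numbered 13876000 to 15102000 in the uninjured group and 14688000 to 16233000 at 3 dpi. Defining genes of the proximal tubule were present in each uninjured sample, for example slc5a2, a sodium-glucose carrier, at 120 to 134 FPKM. Genes of ovary and oocyte set some samples apart. The mean log2(FPKM + 1) of 36 such genes was 4.02 in uninjured replicate 1 and 4.57 in uninjured replicate 3, but 0.50 in uninjured replicate 2 and 0.47 to 0.76 at 3 dpi. In FPKM the 36 genes summed to between 31.4 and 2373 over the uninjured samples and to between 28.1 and 44.5 at 3 dpi. The 24 pancreas genes ranged from 176 to 875 summed FPKM in uninjured samples and from 276 to 1189 at 3 dpi. For 37 liver genes the range was 201 to 1286 uninjured and 283 to 347 at 3 dpi.

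At 3 dpi, 757 of the 5685 genes (13.3%) differed from the uninjured kidney at an adjusted p below 0.05 (limma, Benjamini-Hochberg adjustment), 364 of them higher (6.4%) and 393 lower (6.91%). Genes of tubular uptake led the falls, and transcription factors of the early stress response, heat shock proteins, chemokines and interferon-induced genes led the rises. The median log2 change of all genes was -0.13. Higher genes made up 48.1% of the calls on the deposited scale. Scaling by the median of ratios moved this share to 59.8% and the median of all genes to -0.05, and quantile normalization moved them to 70.5% and 0.07. In 2452 genes (43.1%) the 3 dpi and uninjured samples did not overlap. The number of calls depended on single samples. It was 361 without 3 dpi replicate 1, 50 without 3 dpi replicate 2, 159 without 3 dpi replicate 3, 138 without uninjured replicate 1 and 230 without uninjured replicate 3, while leaving out uninjured replicate 2, the control sample with few ovary transcripts, raised it to 1678, of which 24.5% were higher. With the ovary list's mean as a covariate 237 genes were called.

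**Figure D1:**
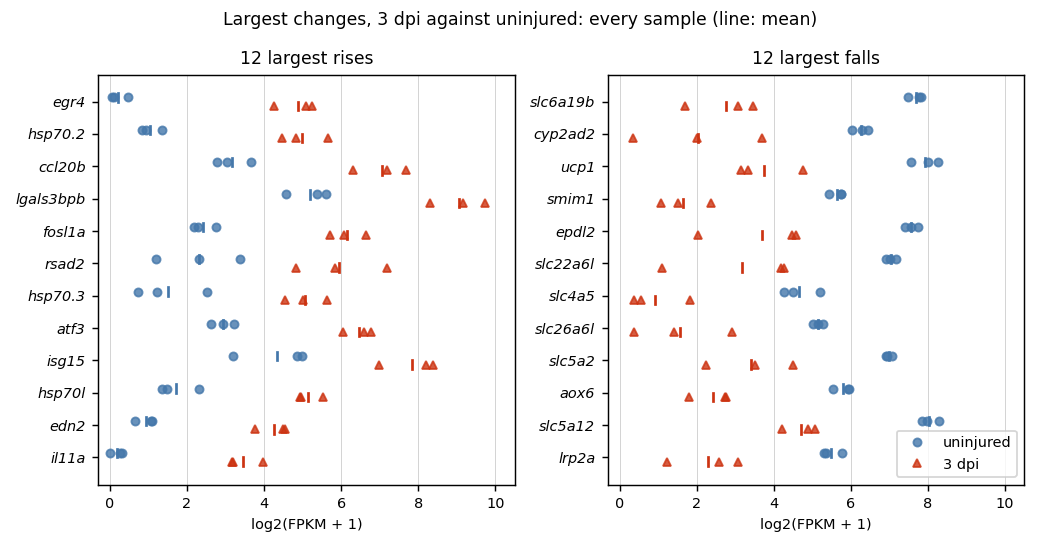
The 12 named genes with the largest rise (left) and the 12 with the largest fall (right) at 3 dpi, with log2(FPKM + 1) on the horizontal axis, each point 1 kidney sample and each line the mean of 3 samples. The groups do not overlap in any of the 24 genes, which is part of the rule by which they were chosen.

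The 24 genes in the plot, 12 in each direction, had the largest changes among called, named genes whose groups did not overlap. Their limma adjusted p lay between 0.0084 and 0.035, below 0.05 by the rule itself, and each kept its direction under every alternative. Of the 24, 24 stayed below 0.05 in the fit on recovered reads, 18 with the ovary covariate, and between 13 (without 3 dpi replicate 2) and 24 (without uninjured replicate 2) when a single sample was left out. Without uninjured replicate 1 the number was 15 and without uninjured replicate 3 it was 16. With the replicate number as a block in the fit it was 0, as it was for all genes tested.

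Among the genes chosen by this rule the largest fall was that of slc6a19b, which encodes a sodium-coupled carrier of neutral amino acids of the brush border (chromosome 16, 19168425 to 19192910, plus strand, GRCz11). It stood at 216, 225 and 177 FPKM in the uninjured kidneys and at 10.0, 7.43 and 2.26 FPKM at 3 dpi. The lowest uninjured sample was thus far above the highest injured sample, and the mean was 31.4-fold lower at 3 dpi. The log2 change was -4.94 (standard error 0.45, limma adjusted p = 0.0084). In slc5a12, a sodium-coupled carrier of monocarboxylates such as lactate, the uninjured samples were at 252, 309 and 229 FPKM and the 3 dpi samples at 28.5, 17.5 and 32.3 FPKM, so its log2 value changed by -3.32 (standard error 0.27, limma adjusted p = 0.0084). The sodium-glucose carrier slc5a2, in mammals the target of the gliflozin drugs, went from 134, 120 and 122 FPKM to 21.7, 10.4 and 3.74 FPKM (log2 change -3.56, standard error 0.54, limma adjusted p = 0.017). In slc5a2, slc6a19b and slc22a6l the lowest of the 6 values was that of 3 dpi replicate 3. The organic anion carrier gene slc22a6l had 142, 120 and 129 FPKM in the uninjured kidney and 18.1, 17.1 and 1.13 FPKM at 3 dpi (log2 change -3.86, standard error 0.84, limma adjusted p = 0.035).

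These 4 genes belong to a list of 80 carriers and transporters of the proximal tubule. Of these 80 genes 31 fell, 1 rose and 48 did not pass the test, which is 38.8% lower against 6.91% of all genes. The median log2 change of the list was -0.91, beside -0.13 for all genes, and 63 of the 80 estimates were below 0. Further falls in the list were those of slc26a6l, an anion exchanger, by 3.58 and slc34a1a, the sodium-phosphate carrier, by 2.94 on the log2 scale. The 31 falls ranged from -0.91 to -4.94 and covered carriers of amino acids, sugars, ascorbate, bicarbonate, dipeptides and organic ions. The only listed member that rose was slco2b1, a carrier of organic anions, with a log2 change of 0.82. This count of 32 calls lay between 4 (without 3 dpi replicate 2) and 36 (without uninjured replicate 2) when a sample was left out and was 13 with the ovary covariate. Against uninjured replicate 2 alone, the control sample with few ovary transcripts, the median was -0.96.

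Some receptors and enzymes of the apical membrane were lower as well. Of 20 genes of endocytosis and the brush border, 6 fell and none of the 20 rose, where 6.91% of all genes fell. The separate GO term brush border showed less, with 2 of 19 genes lower and none higher. The median log2 change of that term was -0.11, beside -0.13 for all genes. The endocytic receptor gene lrp2a, which encodes megalin, was at 53.5, 40.2 and 38.8 FPKM in uninjured kidneys and 7.43, 4.95 and 1.34 FPKM at 3 dpi, with no overlap (log2 change -3.19, standard error 0.48, limma adjusted p = 0.016). Its partner cubn, cubilin, stood at 87.4, 59.2 and 67.2 FPKM before injury and at 12.1, 14.4 and 12.1 FPKM at 3 dpi (log2 change -2.37, standard error 0.20, limma adjusted p = 0.0084). The mean of cubn was 5.55-fold and that of lrp2a 9.65-fold lower. The adaptor dab2, which links these receptors to the clathrin coat, fell by 1.64, the peptidases dpp4 and anpepb fell by 1.68 and 1.25, and pdzk1ip1, a small membrane protein of the proximal tubule, fell by 0.97 on the log2 scale. The list's median was -0.76, and it was -0.91 against uninjured replicate 2 alone. Leaving out a sample gave 1 (without 3 dpi replicate 2) to 7 calls (without uninjured replicate 2), and the ovary covariate 2.

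**Figure D2:**
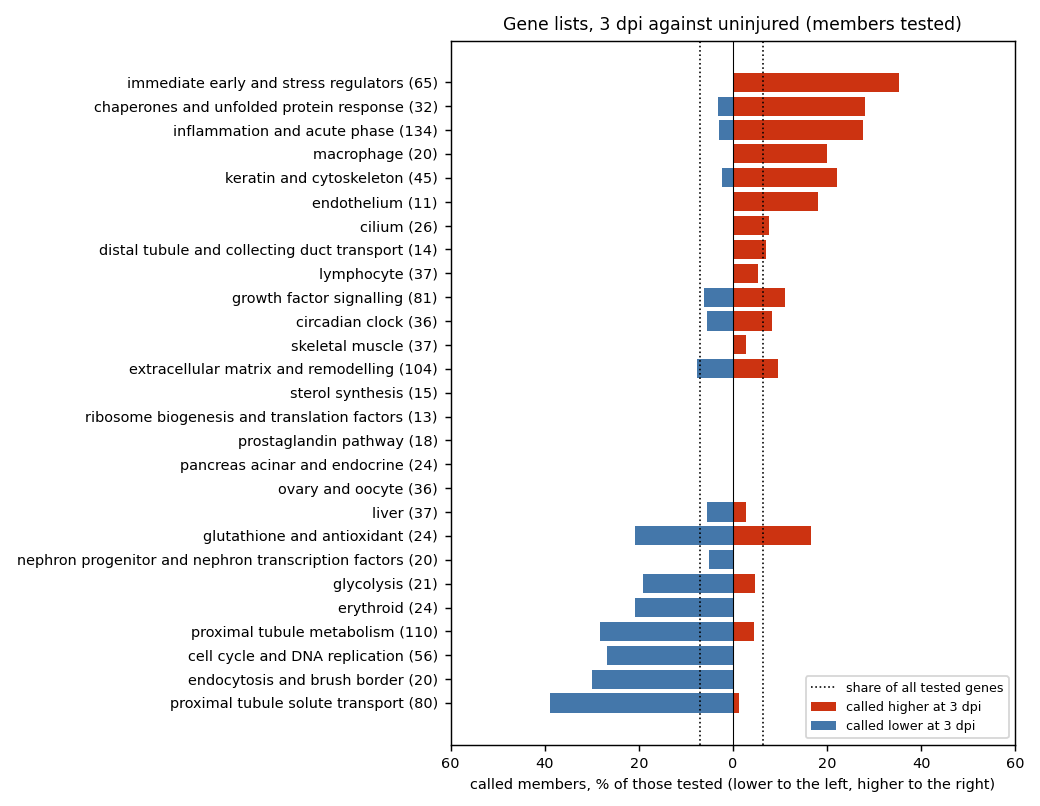
Share of the members of each gene list that were called higher (red, to the right) or lower (blue, to the left) at 3 dpi, in % of the members tested, whose number is in parentheses; lists with fewer than 10 tested members are left out. Dotted lines mark the 6.4% and 6.91% of all tested genes. Proximal tubule transport reaches 38.8% lower and immediate early genes 35.4% higher.

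Metabolic enzymes that the proximal tubule carries in large amounts followed the carriers. Of 110 such genes 31 fell and 5 rose, with a median log2 change of -0.74, beside -0.13 for all genes. That is 28.2% lower and 4.55% higher, beside 6.91% and 6.4% of all genes. The cytochrome P450 gene cyp2ad2 had 86.7, 64.1 and 76.5 FPKM in uninjured kidneys and 11.9, 3.05 and 0.279 FPKM at 3 dpi, so its 3 dpi samples differed widely among themselves and still lay below every uninjured sample (log2 change -4.23, standard error 0.78, limma adjusted p = 0.024). Peroxisomal and amino acid enzymes followed, with hao2, a hydroxyacid oxidase, lower by a log2 change of -2.80 and hgd, the homogentisate dioxygenase of tyrosine breakdown, by -2.31. The 5 that rose were led by cyp3c3, with a log2 change of 3.24, and cyp2aa11, with 2.54, both cytochrome P450 genes. Leaving out a sample gave 2 (without 3 dpi replicate 2) to 48 calls (without uninjured replicate 2), and the ovary covariate 11. Against uninjured replicate 2 alone the median was -0.75.

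Of 21 glycolysis genes 4 fell and 1 rose, where 6.91% of all genes fell and 6.4% rose. These 5 calls became 0 to 9 when a sample was left out, and 1 fall with the ovary covariate. The glycolytic enzyme gene gapdh, often taken as a reference gene, was at 534, 430 and 573 FPKM in uninjured kidneys and at 210, 173 and 125 FPKM at 3 dpi (log2 change -1.61, standard error 0.26, limma adjusted p = 0.020). The 1 that rose was pfkfb3, which makes an activator of glycolysis, with a log2 change of 1.36, and aldoca and pfklb fell by 1.74 and 0.92 on the log2 scale. Among 24 glutathione and antioxidant genes 5 fell, among them cat, the catalase of peroxisomes, by 1.55, and gpx4a, a lipid peroxidase, by 1.48, while 4 rose, with gpx1b at 1.82, sqstm1, the autophagy adaptor p62, at 1.54 and txn, thioredoxin, at 1.42. Glutathione peroxidase gpx1b had 55.8, 45.4 and 62.7 FPKM uninjured and 220, 172 and 192 FPKM at 3 dpi. The 3 dpi samples were all above the uninjured samples. In the antioxidant list 20.8% of the genes were lower and 16.7% higher. It had 1 to 10 calls when a sample was left out, and 1 rise and 1 fall with the ovary covariate.

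The mitochondrial carrier ucp1, an uncoupling protein, went from 187, 256 and 303 FPKM to 9.15, 26.1 and 7.82 FPKM, a 17.3-fold lower mean (log2 change -4.19, standard error 0.46, limma adjusted p = 0.010). The human counterpart of smim1 encodes a red cell membrane protein that carries the Vel blood group. In the fish kidney smim1, annotated here as a processed transcript and not as protein-coding, went from 42.5, 52.3 and 52.97 FPKM to 4.18, 1.85 and 1.12 FPKM (log2 change -3.99, standard error 0.35, limma adjusted p = 0.0084). Neither group came near the other in these genes. The bicarbonate carrier slc4a5 fell by 3.73, the aldehyde oxidase aox6 by 3.37 and epdl2, an ependymin-like gene, by 3.87 on the log2 scale. The largest estimate of all, -6.37, belonged to stc1l, a stanniocalcin gene of the kind made in the corpuscles of Stannius beside the fish kidney and listed here with the distal tubule and collecting duct. It ranged from 329 to 3250 FPKM in uninjured samples and from 0.155 to 434 FPKM at 3 dpi, so the groups overlapped and the limma adjusted p was 0.095; it is named outside the rule for named genes, after its values were seen.

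Of 14 genes of the distal tubule and collecting duct 1 rose, the claudin cldnh, and none fell. That is 7.14% higher, beside 6.4% of all genes, and cldnh was called in 1 of the 6 fits that left out a sample. The list's median log2 change was -0.24, and 5 of the 14 had an unadjusted p below 0.05. Its mean log2(FPKM + 1), which includes stc1l, was 5.18 to 5.23 in uninjured samples and 4.36 to 4.95 at 3 dpi. For 3 podocyte and glomerulus genes, wt1a, wt1b and tcf21, no change passed the limma test, with a median of 0.64, and 1 had an unadjusted p below 0.05. Among 20 transcription factors of nephron formation lhx1a, a marker of nephron progenitors, was the only gene called, 5.0% lower beside 6.91% of all genes. Its FPKM was 1.34, 1.67 and 1.06 in uninjured kidneys and 0.350, 0.470 and 0.329 at 3 dpi, which rests on 37 to 62 reads and 12 to 17 reads per sample. The log2 change was -0.76 (standard error 0.16, limma adjusted p = 0.030). The call was lost under quantile normalization (limma adjusted p = 0.17), and it was 0.049 with the ovary covariate. When a sample was left out lhx1a was called in 1 of 6 fits, that without uninjured replicate 2, and in the others the limma adjusted p was 0.055 to 0.10. Of the genes that define the proximal tubule in the study, acy1, an aminoacylase, fell by 1.27 on the log2 scale, and slc22a2, an organic cation carrier, was at 286, 834 and 428 FPKM uninjured and 297, 192 and 355 FPKM at 3 dpi (log2 change -0.78, limma adjusted p = 0.23). The Wnt pathway genes wnt4a, at a log2 change of 0.07, and lef1, at -0.94, did not pass either (limma adjusted p = 0.73 and 0.12).

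The largest rises were of genes that cells switch on within minutes to hours of stress. Among 65 immediate early and stress regulators 23 rose and none fell, 35.4% against 6.4% of all genes. The zinc finger factor egr4 (chromosome 23, 45844302 to 45846431, plus strand, GRCz11) stood at 0.0738, 0.0339 and 0.396 FPKM in uninjured kidneys, from 1 to 11 reads per sample, and at 37.0, 18.3 and 33 FPKM at 3 dpi, from 525 to 1175 reads. The log2 change, 4.66 on the log2(FPKM + 1) scale, was the highest of all genes tested (standard error 0.32, limma adjusted p = 0.0084). The AP-1 subunit fosl1a was at 5.78, 3.57 and 3.85 FPKM and then at 51.7, 98.7 and 66.6 FPKM, and atf3, a stress-induced repressor, at 5.18, 6.67 and 8.39 FPKM and then at 64.7, 108 and 95.7 FPKM. Both had clear gaps between the groups, with log2 changes of 3.74 and 3.54 (standard error 0.29 and 0.27, both limma adjusted p = 0.0084). Smaller rises were those of egr1, another early growth response factor, at 2.37, gadd45bb, a growth arrest gene, at 2.22 and fosl1b, the paralog of fosl1a, at 2.13. The list's median was 0.74, and 0.86 against uninjured replicate 2 alone. Leaving out a sample gave 4 (without 3 dpi replicate 2) to 25 calls (without uninjured replicate 2), and the ovary covariate 11.

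Heat shock genes rose with them. Of 32 chaperone and unfolded protein response genes 9 rose and 1 fell, 28.1% higher and 3.12% lower beside 6.4% and 6.91% of all genes. The list had 3 calls without 3 dpi replicate 2, 4 or 5 without 3 dpi replicate 1 or 3 or uninjured replicate 1 or 3, and 10 without uninjured replicate 2. The inducible hsp70.2 was at 0.783, 1.55 and 0.917 FPKM in uninjured kidneys and 20.9, 27.5 and 49.7 FPKM at 3 dpi (log2 change 3.94, standard error 0.35, limma adjusted p = 0.0084), and the related hsp70.3, hsp70l and hsp70.1 rose by 3.57, 3.41 and 2.08. These genes are near copies of each other, so the division of reads among them is uncertain. The inducible cytosolic hsp90aa1.2 went from 14.6, 20.6 and 5.09 FPKM to 88.0, 66.9 and 86.2 FPKM (log2 change 2.67), and the co-chaperone DNAJA4 from 6.16, 5.33 and 4.498 FPKM to 23.7, 22.7 and 20.98 FPKM (log2 change 1.90). In both, every 3 dpi sample was above every uninjured sample.

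Further groups were put together after the values had been seen and are counted as a description. Of 17 known targets of p53, the DNA damage factor, 8 rose and none fell. The cell cycle inhibitor cdkn1a, p21, was at 1.60, 1.85 and 2.37 FPKM uninjured and 20.6, 16.6 and 15.03 FPKM at 3 dpi (log2 change 2.64, standard error 0.22, limma adjusted p = 0.0084). With it rose RPS27L, a ribosomal protein gene induced by p53, at 2.33, phlda3, an Akt inhibitor, at 1.75, dram1, a lysosomal protein of autophagy, at 1.31, and mdm2, the ubiquitin ligase that removes p53, at 1.13. Of 19 genes of coagulation and fibrinolysis 8 rose and none fell. Tissue plasminogen activator plat was at 3.43, 3.68 and 3.56 FPKM before injury and 26.96, 67.8 and 29.5 FPKM at 3 dpi (log2 change 3.09, standard error 0.36, limma adjusted p = 0.010). With it rose f3b and f3a, the 2 tissue factor genes that start clotting, by 2.53 and 2.02. Of 11 claudins, the strand proteins of tight junctions, 5 rose, with cldnb at 2.10, cldn11a at 1.46, cldn5b at 1.38 and cldnc and cldnh at 0.87 each, and cldn15a fell by 1.46. The gene cldnb stood at 24.3, 20.2 and 17.6 FPKM and then at 98.3, 94.3 and 82.1 FPKM, a 4.43-fold higher mean. For p53 targets, coagulation genes and claudins the shares higher were 47.1%, 42.1% and 45.5%, beside 6.4% of all genes. Leaving out a sample gave 2 to 9, 1 to 10 and 1 to 7 calls in these groups. With the ovary covariate 2, 4 and 2 of their genes rose.

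Of 45 keratin and cytoskeleton genes 10 rose, 1 fell and 34 did not pass. That is 22.2% higher and 2.22% lower, beside 6.4% and 6.91% of all genes. Without 3 dpi replicate 2 none was called, 3 or 4 were called without 3 dpi replicate 1 or 3 or without uninjured replicate 1 or 3, and 15 without uninjured replicate 2. With the ovary covariate 2 rose and 1 fell. The contractile genes tagln, transgelin, cnn2, a calponin, and the tropomyosins tpm4b and tpm4a rose by 1.92, 1.58, 1.29 and 1.20, with the membrane-binding anxa2b at 2.16 and the tubulin tubb6 at 1.79. For tagln the uninjured samples were at 17.4, 10.6 and 11.4 FPKM and the 3 dpi samples at 44.7, 61.5 and 49.1 FPKM. The actin gene acta1a, listed under skeletal muscle, rose by 3.08 and was the only one of 37 muscle genes to be called, with a list median of -0.47. Among 26 cilium genes foxj1a, the master regulator of motile cilia, and tekt3, a protein of ciliary microtubules, rose by 1.02 and 1.29 and the other 24 did not pass. This is 7.69% higher beside 6.4% of all genes, and foxj1a was called in 0 of the 6 fits that left out a sample. By the GO annotation 0 of 24 cilium genes were higher and 2 lower.

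Chemokines, cytokines and antiviral genes formed the longest list, and it held the largest number of genes that rose. Of 134 genes of inflammation and the acute phase 37 rose and 4 fell, with a median log2 change of 0.63. That is 27.6% higher and 2.99% lower, beside 6.4% and 6.91% of all genes. The share higher was smaller than the 35.4% of the immediate early and stress regulators. The chemokine ccl20b was at 7.29, 11.6 and 5.89 FPKM in uninjured kidneys and 204, 146 and 78.5 FPKM at 3 dpi (log2 change 3.90, standard error 0.40, limma adjusted p = 0.0090). The cytokine il11a had 0 to 4 reads per uninjured sample, 0.194, 0 and 0.253 FPKM, and 134 to 239 reads at 3 dpi, 7.98, 14.6 and 8.14 FPKM (log2 change 3.25, standard error 0.29, limma adjusted p = 0.0084). Every 3 dpi sample was well above the uninjured samples in both. The vasoconstrictor peptide gene edn2, outside the list, rose from 1.10, 0.560 and 1.15 FPKM to 22.4, 21.4 and 12.5 FPKM (log2 change 3.32). The gene irg1l, related to the mammalian gene whose enzyme makes itaconate, was at 0.144, 0.0264 and 1.57 FPKM and then at 3.66, 30.3 and 12.7 FPKM (log2 change 3.12, standard error 0.74, limma adjusted p = 0.042). Leaving out a sample gave 3 (without 3 dpi replicate 2) to 42 calls (without uninjured replicate 2) in the list, and the ovary covariate 12. Against uninjured replicate 2 alone the median was 0.72.

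Interferon-induced genes, another group put together after the values had been seen, overlap with this list. Of 47 such genes 18 rose and 1, ifitm5, fell, and 46 of the 47 estimates were above 0, with a median of 1.21. That is 38.3% higher and 2.13% lower, beside 6.4% and 6.91% of all genes. The antiviral enzyme gene rsad2, viperin, was at 3.996, 1.31 and 9.41 FPKM in uninjured kidneys and 27.6, 55.8 and 145 FPKM at 3 dpi (log2 change 3.65, standard error 0.75, limma adjusted p = 0.030). The ubiquitin-like modifier isg15 was at 27.8, 8.18 and 30.8 FPKM and then at 124, 292 and 331 FPKM (log2 change 3.50, standard error 0.59, limma adjusted p = 0.021). The 3 injured kidneys differed among themselves, with replicate 1 lowest and replicate 3 highest in both genes and in the antiviral genes mxb, mxa and ifit8. The log2 changes of mxb, mxa, mxe and ifit8 were 3.05, 2.49, 2.54 and 3.23. The mean log2(FPKM + 1) of the group was 3.06 to 3.23 in uninjured samples and 3.89 to 4.99 at 3 dpi. Its number of calls was 0 without 3 dpi replicate 2, 21 without uninjured replicate 2, 5 with the ovary covariate, 32 when scaled by the median of ratios and 34 when quantile normalized. Against uninjured replicate 2 alone 7 of the 47 estimates were below 0.

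Of 20 macrophage genes 4 rose and none fell, with 0 (without 3 dpi replicate 2) to 4 calls when a sample was left out and 1 without 3 dpi replicate 3 or uninjured replicate 1, and their summed level was 650 to 882 FPKM in uninjured samples and 1537 to 2209 FPKM at 3 dpi. The largest log2 change among them was that of lgals3bpb, a galectin-binding glycoprotein, with 47.7, 22.7 and 40.6 FPKM uninjured and 316, 566 and 853 FPKM at 3 dpi (log2 change 3.88, standard error 0.44, limma adjusted p = 0.010). The lysosomal protease ctss2.2, the mfap4 gene and the complement gene c1qc rose by 1.02, 1.43 and 0.84, and 8 further copies of MFAP4, between which reads can be split, did not pass. The call of c1qc was lost in all 6 fits that left out a sample, and with the ovary covariate (limma adjusted p = 0.10). Mpeg1.1, a perforin of macrophages, was among the members not called. None of 6 neutrophil genes was called by limma or by the fit on recovered reads, with a median of 0.51, and 3 of them had an unadjusted p below 0.05. Of 37 lymphocyte genes ccr9a, a chemokine receptor, rose by 1.82 and igl2v1, an immunoglobulin light chain segment annotated as a pseudogene, by 1.31. That is 5.41% higher, beside 6.4% of all genes. The igl2v1 value rests on 4 to 6 reads per uninjured sample and 18 to 32 at 3 dpi. It was called in 1 of the 6 fits that left out a sample. Of 11 endothelial genes angptl4 and cldn5b, the latter also counted with the claudins, rose, 18.2% beside 6.4% of all genes. Leaving out a sample gave 0 to 2 calls. With the ovary covariate neither passed (limma adjusted p = 0.12 for angptl4 and 0.15 for cldn5b), and 1 other member rose.

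Of 24 genes of red cells 5 fell, 20.8% beside 6.91% of all genes, and the estimates of all 24 were below 0. The 5 were ANK1 and sptb, ankyrin and spectrin of the red cell skeleton, fech and ppox, enzymes of heme synthesis, and slc25a37, the mitochondrial iron carrier mitoferrin, with log2 changes of -1.52, -1.37, -1.45, -1.05 and -1.10. The median was -1.09, and it was -1.67 against uninjured replicate 2 alone. With the ovary covariate 8 of the 24 fell. Ferrochelatase fech was at 12.99, 13.6 and 7.62 FPKM uninjured and 2.54, 5.23 and 2.88 FPKM at 3 dpi. Summed over the list the uninjured samples held 6818 to 18970 FPKM and the 3 dpi samples 3773 to 6452 FPKM. After median-of-ratios scaling only 1 of the 24 was called, after quantile normalization 2, and without any of uninjured replicate 1, uninjured replicate 3 or the 3 dpi samples none was called, while the median stayed between -0.88 and -0.97 under both scalings.

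Of 104 genes of extracellular matrix and remodelling 10 rose and 8 fell, 9.62% higher and 7.69% lower beside 6.4% and 6.91% of all genes. The 18 calls became 1 without 3 dpi replicate 2, 3 to 8 without 3 dpi replicate 1 or 3 or uninjured replicate 1 or 3, and 27 without uninjured replicate 2. The matricellular gene cyr61, a target of stretch signalling, rose from 3.93, 2.27 and 4.03 FPKM to 24.3, 63.5 and 36.3 FPKM (log2 change 3.18, standard error 0.38, limma adjusted p = 0.010). With it rose the thrombospondins THBS1 and thbs1b, by 2.39 and 1.90. The collagen prolyl hydroxylase p4ha3 fell from 4.37, 11.8 and 12.1 FPKM to 0.297, 0.267 and 0.265 FPKM (log2 change -2.92) and the basement membrane collagen col4a6 by 1.72. None of the 6 renal interstitial cell genes that the study names was called by limma or by the fit on recovered reads, and 1 had an unadjusted p below 0.05. Decorin dcn was at 16.9, 9.97 and 8.12 FPKM and then at 11.6, 21.6 and 13.02 FPKM, with overlap, and col1a1b, col1a2, emilin1a and fabp10a had log2 changes of -0.21, 0.10, 0.90 and 0.42 (limma adjusted p = 0.75, 0.91, 0.065 and 0.62). The cyclooxygenase gene ptgs2a had 0.364, 0.223 and 0.148 FPKM uninjured and 0.597, 1.12 and 0.285 FPKM at 3 dpi. These values rest on only 5 to 12 and 10 to 39 reads per sample. Its log2 change was 0.39 (limma adjusted p = 0.18), and 1.27 on recovered reads (voom adjusted p = 0.25). At 5 and 7 dpi ptgs2a was called higher than uninjured, by 0.83 and 0.63 (limma adjusted p = 0.038 and 0.022). At 3 dpi none of the 18 genes of the prostaglandin pathway was called by limma or on recovered reads, with 3 at an unadjusted p below 0.05. Of 81 growth factor signalling genes 9 rose, led by tgfb3, a TGF beta ligand, at 1.38, pdgfba, a platelet-derived growth factor, at 1.16 and hbegfa, an EGF receptor ligand, at 1.08, and 5 fell, led by the Notch target her2 at -1.37 and her15.1 at -1.27. That is 11.1% higher and 6.17% lower, and the 14 calls became 25 without uninjured replicate 2 and 0 or 1 without any other single sample.

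Cell cycle genes were lower at 3 dpi, and this difference moved with the ovary genes. Of 56 genes of the cell cycle and DNA replication 15 fell and none rose, with a median of -1.19, beside -0.13 for all genes. The share lower was 26.8%, beside 6.91% of all genes. The mitotic kinase aurka was at 40.9, 11.8 and 43.9 FPKM in uninjured kidneys and 5.34, 7.26 and 5.28 FPKM at 3 dpi (log2 change -2.07, standard error 0.50, limma adjusted p = 0.045), and cdc20, ccna2 and plk1, an activator, a cyclin and a kinase of mitosis, fell by 1.85, 1.78 and 1.67. In each of these 4 genes uninjured replicates 1 and 3, the samples with high ovary genes, stood well above uninjured replicate 2, which in turn was above every 3 dpi sample. Against uninjured replicate 2 alone the log2 differences of aurka, cdc20, ccna2 and plk1 were -0.90, -0.82, -0.80 and -0.84, and the median of the list was -0.52, with 49 of 56 genes below 0. With the ovary covariate 1 of the 56 was called. Without uninjured replicate 2 the number was 44, and without uninjured replicate 1 or 3 dpi replicate 2 it was 0. None of the 36 ovary genes was called by limma or on recovered reads, 12 had an unadjusted p below 0.05, and their median was -2.41 against all 3 uninjured samples and 0.08 against uninjured replicate 2 alone.

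**Figure D3:**
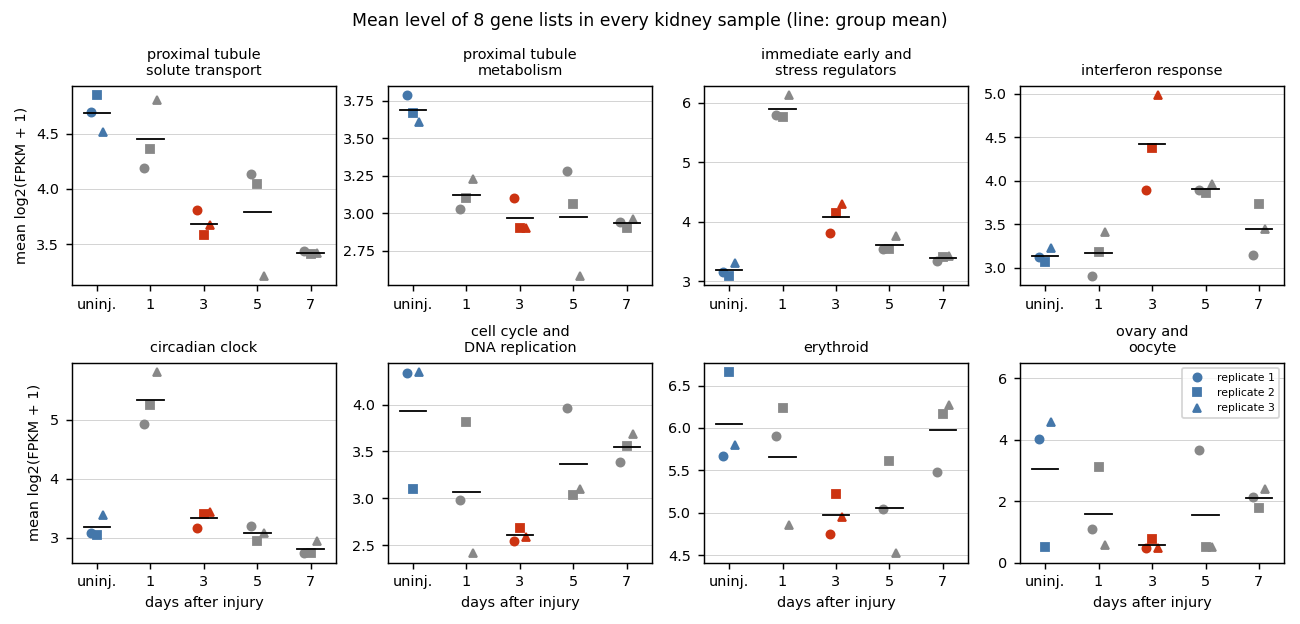
Mean log2(FPKM + 1) of the members of 8 gene lists in each of the 15 kidney samples by group, with marker shapes for the replicate number, a line at each group mean and a vertical axis of its own in each panel. Uninjured samples are blue and 3 dpi samples red; the ovary panel shows 4.02 and 4.57 in uninjured replicates 1 and 3 against 0.50 in uninjured replicate 2, and the cell cycle panel has the same 2 samples on top.

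Of 36 circadian clock genes 3 rose and 2 fell at 3 dpi, 13.9% called beside 13.3% of all genes. The repressor nr1d1, Rev-erb alpha, was at 0.394, 0.860 and 2.57 FPKM uninjured and 11.2, 21.1 and 18.2 FPKM at 3 dpi (log2 change 3.04, standard error 0.42, limma adjusted p = 0.014), nr1d4b rose by 1.48 and the period gene per1a by 0.69, whereas the clock activators rorca and npas2 fell by 1.08 and 1.02. The times of day at which the kidneys were collected are not given in the sources used here, so time of day and injury cannot be told apart for these genes.

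By the GO annotation in the deposited table, sodium ion transport had 10 of 23 genes lower and none higher, the apical plasma membrane 21 of 110 lower and 4 higher, the basolateral plasma membrane 9 of 49 lower and 1 higher, and the mitochondrion 36 of 251 lower and 12 higher. These shares lower, 43.5%, 19.1%, 18.4% and 14.3%, stand beside 6.91% of all genes. The brush border term, with 2 of 19 genes lower, had a median log2 change close to that of all genes. In the other direction, immune response had 17 of 92 genes higher and 1 lower, inflammatory response 18 of 127 and 3, and angiogenesis 9 of 70 and 3, that is 18.5%, 14.2% and 12.9% higher beside 6.4%. For cell division 21 of 90 genes were lower, a term that includes the mitotic genes described with the ovary values. The nucleus, with 5.84% higher and 5.76% lower of 1233, was close to all genes, and transcription had 5.11% higher and 3.19% lower of 470.

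The comparison with 1 dpi asked where 3 dpi differed from the first day. Of the 5685 genes 1359 (23.9%) differed between 3 and 1 dpi (limma adjusted p below 0.05), 471 higher (8.28%) and 888 lower (15.6%) at 3 dpi. Immediate early genes were mostly lower than on the first day, with 45 of 65 lower and 1 higher and a median log2 change of -1.72. The factor atf3 was at 912, 1107 and 1343 FPKM at 1 dpi, against the 64.7 to 108 FPKM at 3 dpi, a log2 change of -3.65 (limma adjusted p = 0.00079). For egr4, at 64.3, 91.3 and 44.3 FPKM at 1 dpi, the change of -1.15 did not pass (limma adjusted p = 0.060). Of 36 clock genes 24 were lower (median -1.46). The 5 largest falls by the rule were those of cipca, nr1d1, nr1d4b, slc16a6b and hunk, of which nr1d1 fell by 5.89 and cipca, a clock repressor, by 6.52 on the log2 scale. The monocarboxylate carrier slc16a6b stood at 411, 434 and 586 FPKM at 1 dpi and 15.02, 6.35 and 13.01 FPKM at 3 dpi. The number of calls was 753 with the ovary covariate and between 500 and 1152 without a single sample, 500 without 3 dpi replicate 2, 565 without 3 dpi replicate 3, 640 without 3 dpi replicate 1, 772 without 1 dpi replicate 2 and 837 without 1 dpi replicate 1. Of the 1359 calls 889 had an absolute log2 change of at least 1.

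Interferon-induced genes, grouped after the values had been seen, went the other way, with 27 of 47 higher at 3 dpi than at 1 dpi and 1 lower. That is 59.6% called, beside 23.9% of all genes, of which 8.28% were higher and 15.6% lower. The 5 largest rises from 1 to 3 dpi were those of mxb, irg1l, rsad2, lgals3bpb and ccl39.1, a chemokine, at 3.25, 3.23, 2.89, 2.74 and 2.69. For rsad2 the 1 dpi samples had 5.92, 9.48 and 6.94 FPKM, all below the lowest 3 dpi value of 27.6 FPKM (limma adjusted p = 0.017). Of 134 inflammation genes 28 were higher and 14 lower at 3 dpi, 31.3% called beside 23.9% of all genes.

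Of 80 proximal tubule carriers 25 were lower at 3 dpi than at 1 dpi and 1 was higher (median -0.56), and 54 did not pass. The share called, 32.5%, stands beside 23.9% of all genes. For slc6a19b, at 55.6, 33.7 and 43.6 FPKM at 1 dpi, the log2 change from 1 to 3 dpi was -2.72 (limma adjusted p = 0.011), and for slc5a2, at 59.3, 78.1 and 77.2 FPKM, it was -2.75 (limma adjusted p = 0.017). The sodium-phosphate carrier slc34a1a had 297, 162 and 142 FPKM in uninjured kidneys, 211, 440 and 659 FPKM at 1 dpi and 48.1, 21.9 and 12.7 FPKM at 3 dpi, so its 3 dpi samples were below those of both other groups, by -2.94 against uninjured and -3.99 against 1 dpi (limma adjusted p = 0.022 and 0.0061). The receptor genes lrp2a and cubn were already low at 1 dpi, with 1.95 to 11.6 and 8.74 to 25.3 FPKM, and differed from 1 to 3 dpi by -0.35 and -0.07 (limma adjusted p = 0.68 and 0.89). Cell cycle genes had 2 of 56 lower and 1 higher than at 1 dpi, 5.36% called beside 23.9% of all genes. At 1 dpi the ovary genes had mean log2 values of 0.57 to 3.10.

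**Figure D4:**
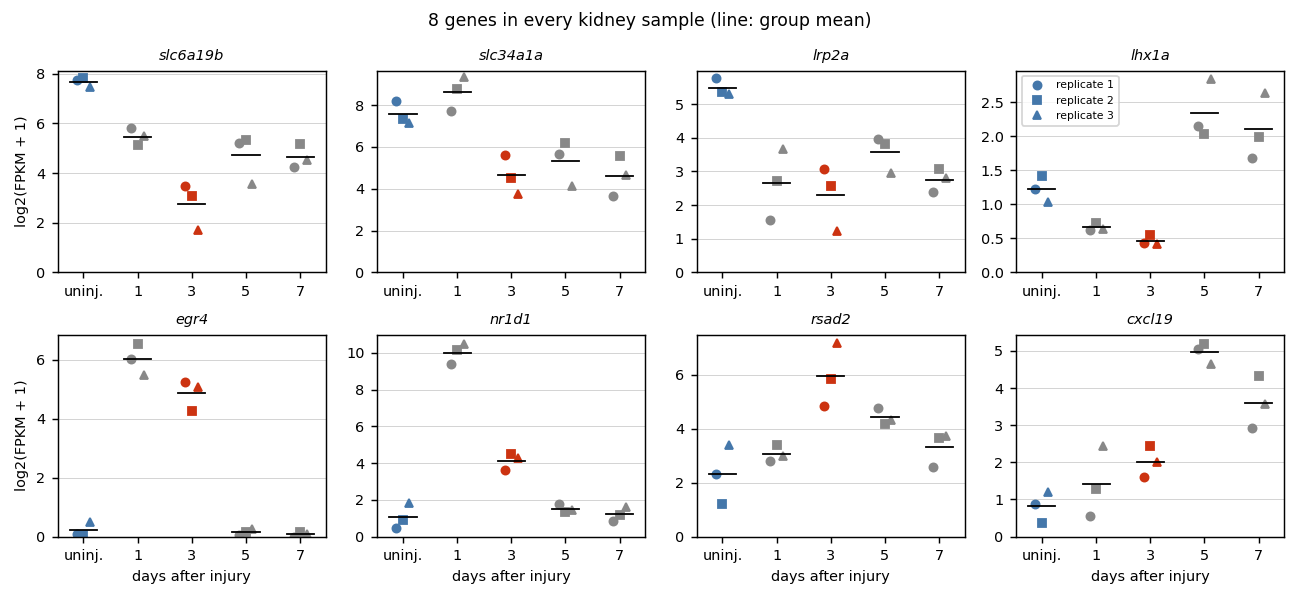
Log2(FPKM + 1) of 8 genes in each of the 15 kidney samples by group, with marker shapes for the replicate number, a line at each group mean and a vertical axis of its own in each panel that starts at 0. At 3 dpi slc6a19b and slc34a1a lie below all uninjured and 1 dpi samples, rsad2 lies above them, and egr4 is high at 1 and 3 dpi alone.

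Few genes passed the test between 3 and 5 dpi, which does not show that the 2 times were alike. The 5 dpi samples differed among themselves. Ovary genes had mean log2 values of 3.65, 0.49 and 0.50 in 5 dpi replicates 1, 2 and 3, and 0.47 to 0.76 at 3 dpi. For proximal tubule carriers these means were 4.13, 4.04 and 3.21 at 5 dpi, and 3.58 to 3.81 at 3 dpi. Between these groups 4 of 5685 genes (0.0704%) passed the limma test at an adjusted p below 0.05, and 1105 had an unadjusted p below 0.05. Of these 4, egr4, fosl1a and DNAJA4 were higher (0.0528% of all genes) and cxcl19 was lower (0.0176%) at 3 dpi. The 5 dpi samples of egr4 were at 0.0360, 0.125 and 0.201 FPKM, close to the uninjured samples (log2 change 4.71, standard error 0.29, limma adjusted p = 0.020). For fosl1a they were at 4.67, 8.31 and 5.37 FPKM (log2 change 3.35) and for DNAJA4 at 5.66, 6.84 and 5.28 FPKM (log2 change 1.76, both limma adjusted p = 0.046). The chemokine gene cxcl19 was lower at 3 dpi, with 2.03, 4.40 and 3.01 FPKM against 32.1, 35.6 and 24.3 FPKM at 5 dpi (log2 change -2.96, limma adjusted p = 0.046). In lhx1a the samples did not overlap, at 0.329 to 0.470 FPKM against 3.08 to 6.17 FPKM, with a log2 change of -1.87 that did not pass (limma adjusted p = 0.085). The count was 0 or 1 whenever a single sample was left out, 1 of them without 3 dpi replicate 2 and 0 without each of the other 5, 0 by the fit on recovered reads, which had 1089 genes at an unadjusted p below 0.05, and 174 in the fit on all 15 samples.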

How the data were processed

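Polyadenylated RNA of 15 zebrafish kidney samples was sequenced as 150 bp read pairs. The authors deposited FPKM, made from reads cleaned with in-house scripts, StringTie 1.3.3b, gene counts of featureCounts 1.5.0-p3 and gene length; the submitters' notes name GRCz11, and the aligner and annotation release are not given in the sources used here. Whether strand was used in counting is not given, so overlapping genes cannot be separated. The deposited gene code from 1 to 6 was not used.

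Groups and replicate numbers came from the titles. Tests used limma 3.58.1 in R 4.3.3 (lmFit, eBayes with a trend, two-sided) on log2(FPKM + 1), in which a fold change understates that of low genes, with the 6 samples compared and Benjamini-Hochberg adjustment over 5685 genes above 0 FPKM in 3 or more of the 15 samples; calls were adjusted p below 0.05. Reads were recovered from the FPKM steps, whole in all 15 samples for 100% of the genes at a tolerance of at most 0.001 reads (above 100000 reads, 1e-08 of the number; 0.02 reads for genes too abundant for the first search), and gave the depth and a voom fit. The fits were tested on simulated data. Named genes were the 12 largest rises and falls among called, named genes without overlap (5 between time points), up to 6 called genes per list and genes the study names, with the exceptions stated. Lists and tests were chosen with earlier results of these data known, so they are not independent of them. Alternatives were 2 scalings, a pseudocount of 0.1, 2 filters, all 15 samples, no trend, the ovary mean, recovered reads, a replicate block, an absolute log2 change of at least 1 and leaving out each sample. Some genes that the rule would name are not reported here.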

Additional observations from a re-analysis of the deposited data

Results flagged for a closer look

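Each gene here differed between 3 dpi and a neighbouring time by limma (adjusted p below 0.05), while its estimates against the uninjured kidney at the 2 times had opposite signs. The sign alone counted, so an estimate near 0 was enough. The log2 change from 1 to 3 dpi was -3.99 for slc34a1a, -2.21 for the peptidase anpepb, -1.41 for acy1 and -2.08 for vtg5, a vitellogenin. All 4 were lower than uninjured at 3 dpi and above it in the mean at 1 dpi. At 1 dpi anpepb was 0.96 above uninjured (limma adjusted p = 0.038). The 1 dpi estimates of slc34a1a and acy1, 1.05 and 0.13, did not pass (limma adjusted p = 0.16 and 0.66). For anpepb the samples were at 62.3, 67.1 and 51.6 FPKM uninjured, 88.6, 130 and 141 FPKM at 1 dpi and 31.9, 18.9 and 24.8 FPKM at 3 dpi, so the 3 groups did not overlap. In the other direction the change from 1 to 3 dpi was 3.25 for mxb, 3.23 for irg1l, 2.69 for ccl39.1, 2.35 for fosl1b and 1.39 for tpm4a, which were higher than uninjured at 3 dpi and had a mean log2 value below uninjured at 1 dpi. The 1 dpi estimates of mxb, fosl1b and tpm4a against uninjured, -0.20, -0.22 and -0.19, did not pass (limma adjusted p = 0.46, 0.36 and 0.67). For egr4 the log2 difference between 3 and 5 dpi was 4.71, with 5 dpi near the uninjured level (log2 change -0.05, limma adjusted p = 0.80). The comparisons with the uninjured kidney share the same 3 control samples.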

How the results depend on the processing

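The 757 genes called between 3 dpi and uninjured became 1493 in the fit on all 15 samples, 237 with the ovary mean as a covariate, 50 to 1678 when a sample was left out and 0 against uninjured replicate 2 alone, an alternative chosen after seeing the data that leaves 1 control sample and had 1386 genes at an unadjusted p below 0.05. With the replicate number as a block 0 genes were called and 1805 had an unadjusted p below 0.05. In deviations from the group mean the same-numbered samples correlated at -0.10, -0.25 and -0.11. Between 3 and 1 dpi these correlations were 0, 0.23 and 0.20, and between 3 and 5 dpi 0.11, -0.18 and 0.09. With 3 samples per group they cannot decide whether the numbers pair the samples. The 1359 genes between 3 and 1 dpi became 753 with the ovary covariate, 889 at an absolute log2 change of at least 1, 500 to 1152 without a sample and 1182 with the block, and the 4 between 3 and 5 dpi became 13 with a pseudocount of 0.1, 7 at a mean of at least 1 FPKM, 174 with all 15 samples, 0 with the block, the ovary covariate or recovered reads (984 to 1165 at an unadjusted p below 0.05) and 0 to 1 without a sample. Leaving the ovary list out kept 757 calls, which says nothing about the ovary signal, since none of its 36 genes was called. Over 136 named genes, 1755 of 2531 pairs of gene and alternative kept direction and side of the threshold, 758 fell short of it, 8 newly passed and 10 changed sign, none of them in a called gene: without a sample col1a2 ranged from -0.27 to 0.56, col1a1b from -0.55 to 0.13 and fabp10a from -0.06 to 1.09, col1a1b was at 0.05 after quantile normalization and wnt4a at -0.11 with the ovary covariate; against uninjured replicate 2 alone wnt4a was at -0.13 and col1a1b at 0.00. The cause was not tested. The unstated selection of the listed genes and 3 samples per group limit every count, and genes with few reads, such as lhx1a, are the least precise.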
